A study of Homo sapiens with 6 samples.

Results

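The genes described here encode the proteasome of MOLM14 cells. MOLM14 is a cultured line of human acute myeloid leukemia (AML) with FLT3-ITD, an internal tandem duplication that keeps the receptor tyrosine kinase FLT3 active. They were chosen by symbol, PSM followed by a letter from A to G and a digit, which gave the 49 genes described here of 13244 in the deposited table. Of these, 44 encode a proteasome subunit, a proteasome activator or inhibitor, or an assembly chaperone. The other 5 share only the name and are described at the end. Gene expression was compared between 3 cultures treated with 2 nM HSN748, a nicotinamide-based FLT3 inhibitor (replicates 7, 8 and 9), and 3 cultures given DMSO, its vehicle (replicates 1, 2 and 3). Exposure lasted 24 hours in both groups, and all cultures were of the same line, which the labels give as FLT3 ITD. The paper describes the triplicates as biologically independent. The question was which transcripts differed between HSN748-treated cells and DMSO controls.

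The 26S proteasome degrades proteins that carry ubiquitin chains. Its 20S core is a barrel of alpha and beta subunits, and proteolysis takes place inside it at the beta subunits PSMB5, PSMB6 and PSMB7. A 19S cap recognizes the chain, removes it and threads the unfolded substrate into the core with a ring of ATPases. Chaperones help to build the core and the cap, and other activators, such as PA28, can take the place of the cap. In blood cells the immunoproteasome subunits PSMB8 and PSMB10 can replace PSMB5 and PSMB7, which alters the peptides available to MHC class I. Transcription of subunit genes is known to be raised by NFE2L1, a factor that binds antioxidant response elements when proteasome activity is low.

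Between 35277785 and 59279430 counts were assigned per library. The 44 genes took from 0.593% to 0.646% of the counts in DMSO controls and from 0.373% to 0.403% in HSN748-treated cells. Levels are in CPM, the count divided by the TMM-scaled library size in units of 1e+06 counts. Each log2 fold change is HSN748 relative to DMSO, with its standard error (SE). Adjusted p-values come from edgeR's quasi-likelihood test over 13084 genes with Benjamini-Hochberg adjustment, and a gene passed at an adjusted p under 0.05. A count gives a share of the RNA sequenced, so that fewer cells of a type and less RNA per cell cannot be told apart. Markers of myeloid cells (CD33, SPI1, CEBPA, LYZ, CSF1R, FLT3 and MPO) were all measured, and their summed level was from 1505 to 1557 CPM in DMSO controls and from 3092 to 3285 CPM in HSN748-treated cells. Of the 7 markers 5 were higher, MPO was lower (-2.26) and CD33 did not pass. LYZ (751.5 to 1267 CPM) and FLT3 (396 to 1150 CPM) made up most of the sum. Of 9 markers of T, B, erythroid, epithelial and fibroblast cells, 7 are not among the genes of the table, and the remaining CD79A and COL1A1 summed to 0.472 to 0.772 CPM in DMSO controls and 2.15 to 2.69 CPM with HSN748. The part of these markers in the proteasome results was not tested.

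The regulatory sequence of 3 genes is shown first, because PSMG1 and PSME2 had the largest decreases of the 44 genes and PSMB4 the smallest change. Each is the 250 bases before the RefSeq start of the gene in GRCh38.p14, printed 5′ to 3′ on the strand of the gene. Capitals mark matches on either strand to the core of the antioxidant response element (TGACNNNGC), the CCAAT box (CCAAT), an ETS site (CCGGAAG), the E-box (CACGTG) or the GC box (GGGCGG), and matches of different motifs may overlap. PSMG1 lies at chr21:39183452-39183701 on the minus strand, PSME2 at chr14:24146611-24146860 on the minus strand and PSMB4 at chr1:151399323-151399572 on the plus strand. The deposited table places the start of PSMG1 further upstream, at chr21:39183514. The end of its printed sequence, with the last GC box, therefore lies within the deposited gene span.
PSMG1: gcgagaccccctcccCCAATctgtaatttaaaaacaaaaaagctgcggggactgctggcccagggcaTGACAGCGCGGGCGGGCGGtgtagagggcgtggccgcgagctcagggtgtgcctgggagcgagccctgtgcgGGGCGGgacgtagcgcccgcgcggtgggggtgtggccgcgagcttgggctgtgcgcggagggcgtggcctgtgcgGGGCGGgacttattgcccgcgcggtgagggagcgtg
PSME2: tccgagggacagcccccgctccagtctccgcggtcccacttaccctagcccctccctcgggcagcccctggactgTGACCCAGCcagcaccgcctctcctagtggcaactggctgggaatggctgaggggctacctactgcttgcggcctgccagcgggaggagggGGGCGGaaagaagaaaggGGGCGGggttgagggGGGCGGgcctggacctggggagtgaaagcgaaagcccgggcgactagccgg
PSMB4: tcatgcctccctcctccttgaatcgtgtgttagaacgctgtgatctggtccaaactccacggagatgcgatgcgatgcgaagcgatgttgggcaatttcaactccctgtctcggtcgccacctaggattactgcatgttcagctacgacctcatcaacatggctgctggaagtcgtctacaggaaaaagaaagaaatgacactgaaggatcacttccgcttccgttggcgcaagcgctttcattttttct
The PSMG1 and PSME2 promoters each held an antioxidant response element core (starting at base -183 and -175 from the gene start) and several GC boxes. From 250 bases before to 50 bases after the start, 19.5% of tested genes held that core and 75.3% a GC box. Members with the core had a median log2 fold change of -0.84 and members without it of -0.89. PSMB4 held no match, and it was chosen for display after its value had been seen.

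Transcripts of nearly all of these proteasome genes were lower in HSN748-treated cells. Proteasome protein and activity were not examined here. Of the 44 genes, 43 were lower, 0 were higher and 1, PSMB4, did not pass. Of all genes tested, 36.5% were lower, 36.6% were higher and 73.1% passed in either direction. With a log2 fold change beyond -1 as well, 14 of the 44 were lower, beside 14.9% of all genes (17% were higher beyond 1 and 31.9% passed in either direction). The median log2 fold change of the 44 genes was -0.86, and that of all genes was 0.01. In 42 of the 44 genes every HSN748 culture lay below every DMSO culture, which was so for 37.1% of all genes. The exceptions were PSMB4 and PSMB10. Summed over the 44 genes, DMSO controls had 6182, 6203 and 6827 CPM and HSN748-treated cells 3922, 3494 and 3715 CPM, so that the treated sum was 57.9% of that in controls. DMSO replicate 3 was the highest DMSO culture for 31 of the 44 genes, and HSN748 replicate 7 was the highest treated culture for 28. Without DMSO replicate 3 the median was -0.75, and 41 genes were lower.

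**Figure D1:**
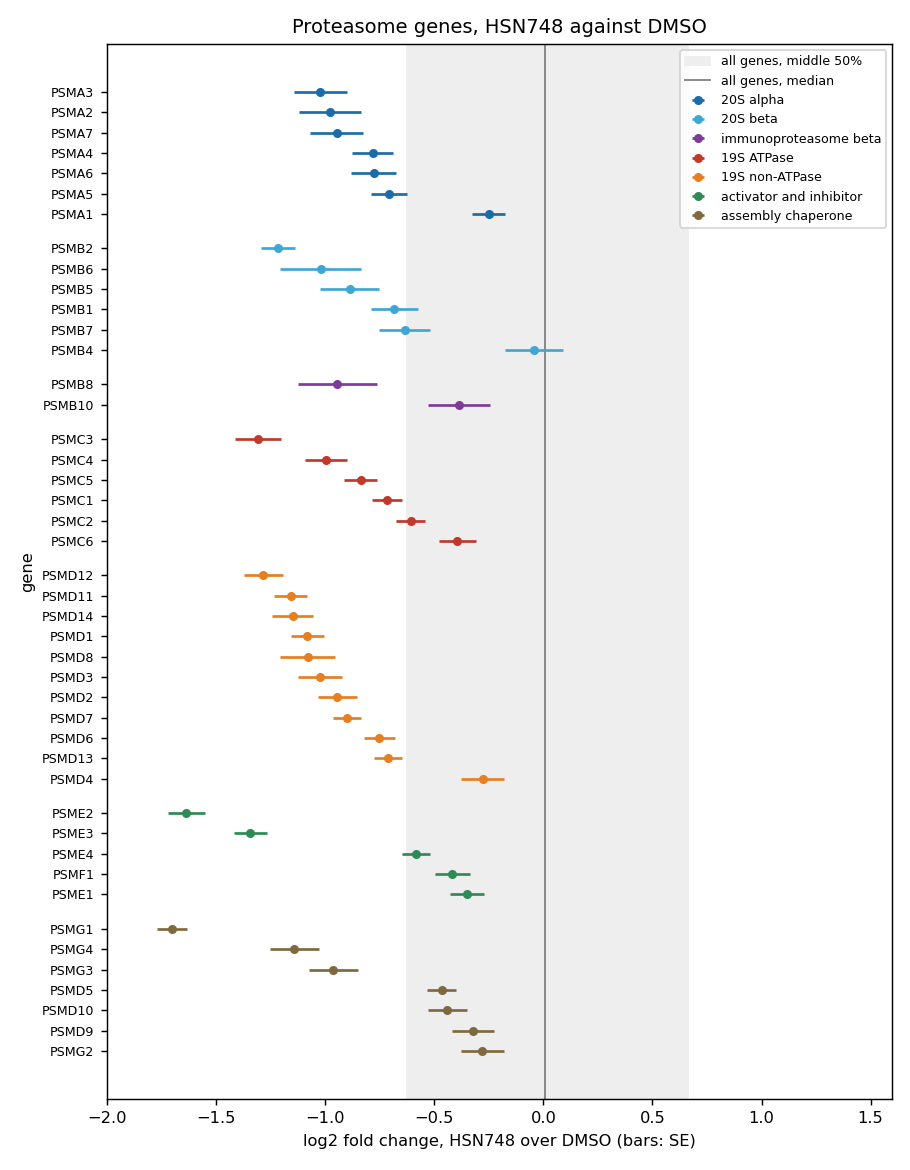
Log2 fold change (x axis, HSN748 over DMSO after TMM scaling, bars SE) of the 44 proteasome genes, grouped by part, with the median of all genes tested as a line and their middle 50% as a band. All points lie below 0 and the lowest is PSMG1 at -1.70, while scaling to 12 reference genes put 11 of the genes above 0.

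The size of the decrease depended on the scaling. A change of scaling shifts all genes by nearly the same amount, so it could hardly alter the order of the parts. That order was not fixed in other settings. With TMM but without HSN748 replicate 9, the immunoproteasome median (-0.76) lay below that of the alpha subunits (-0.75), and with all cultures it lay above (-0.67 and -0.78). TMM placed the median of all genes at 0.01, upper-quartile factors at 0.21, the total count at 0.13, 9 reference genes at 0.37 and 12 reference genes at 0.52. The proteasome median moved along with it, to -0.66, -0.74, -0.49 and -0.35 in that order. Relative to the median of all genes, that of the 44 genes therefore lay at -0.87 with TMM, -0.86 with 9 reference genes and -0.87 with 12. This offset was -0.73 with a filter at a mean of 10 CPM, where fewer genes were tested. Leaving out each culture gave offsets from -0.90 (without HSN748 replicate 7) to -0.76 (without DMSO replicate 3). With 12 reference genes 28 of the 44 were lower and 4 were higher, namely PSMB4 (0.47), PSMA1 (0.26), PSMD4 (0.23) and PSMG2 (0.23). With 9 reference genes 33 were lower and PSMB4 alone was higher (0.33), and upper-quartile factors left 36 lower. Of the reference genes themselves, 8 of the 12 were lower and 2 higher after TMM scaling, from TFRC at -2.41 to B2M at 1.20, and 5 of the 9 were lower and 1 higher. Among all genes that passed, 49.9% were lower with TMM, 38.4% with upper-quartile factors, 30.5% with 9 reference genes and 24.2% with 12.

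**Figure D2:**
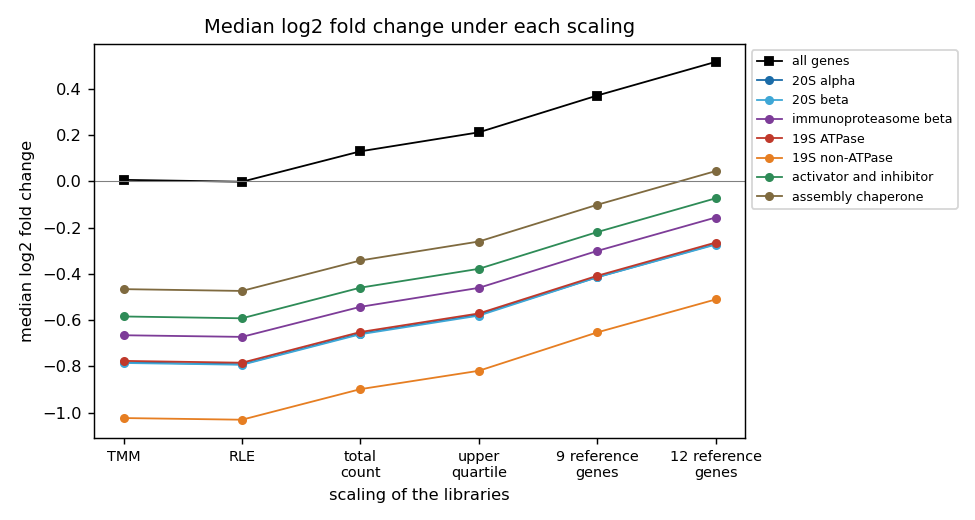
Median log2 fold change (y axis) of all genes tested and of the genes of each proteasome part under 6 scalings of the libraries (x axis). Every line rises by about the same amount from TMM to 12 reference genes, where the assembly chaperones reach 0.04 and the other parts stay below 0.

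The alpha subunits form the outer rings of the 20S core and its gate. All 7 measured were lower (median log2 fold change -0.78), although PSMA1 was higher when scaled to 12 reference genes. PSMA3 was at 193, 199 and 238 CPM in DMSO controls and at 122, 95.5 and 92.9 CPM in HSN748-treated cells (log2 fold change -1.02, SE 0.12, adjusted p = 7.4e-05). The groups did not overlap, and HSN748 replicate 7 was the highest treated culture. PSMA2 (-0.98), PSMA7 (-0.95), PSMA4 (-0.78), PSMA6 (-0.78) and PSMA5 (-0.71) followed. PSMA1 changed least, at -0.25 (SE 0.08, adjusted p = 0.016), and it did not pass without HSN748 replicate 8 (adjusted p = 0.076) or 9 (0.073).

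Of the constitutive beta subunits measured, 5 of 6 were lower (3 of 6 with 12 reference genes). All catalytic subunits were lower, although PSMB7 did not pass with 12 reference genes (-0.12, adjusted p = 0.3). PSMB5, which carries the chymotrypsin-like site and is the main target of bortezomib, was at 55.0, 45.5 and 67.0 CPM in DMSO controls and at 32.3, 28.3 and 30.0 CPM in HSN748-treated cells (log2 fold change -0.89, SE 0.14, adjusted p = 0.00034). PSMB6, with the caspase-like site, was at 53.2, 45.5 and 79.3 CPM in controls and at 31.4, 28.5 and 27.8 CPM in treated cells (-1.02, SE 0.18, adjusted p = 0.00094). PSMB7, with the trypsin-like site, was at 89.1, 85.1 and 108 CPM in controls and at 65.8, 52.5 and 63.3 CPM in treated cells (-0.63, SE 0.12, adjusted p = 0.0011). For each of the catalytic genes DMSO replicate 3 was the highest culture, and the groups did not overlap. Of the exon bases of PSMB7, 39.5% are shared with LOC100129034 on the opposite strand, and whether counting used the strand is not given in the sources used here. PSMB1, a structural subunit, was at -0.68.

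PSMB2 and PSMB4, structural beta subunits that both serve as reference genes in expression studies, had the largest and the smallest decrease of the constitutive beta genes. PSMB2 was at 169, 170 and 180 CPM in DMSO controls and at 79.4, 67.6 and 76.3 CPM in HSN748-treated cells, the largest decrease in the 20S core (log2 fold change -1.22, SE 0.08, adjusted p = 1.6e-06). PSMB4 was at 199, 180 and 232 CPM in controls and at 234, 169 and 191 CPM in treated cells, and its groups overlapped fully (-0.04, SE 0.13, adjusted p = 0.79). The ratio of PSMB2 to PSMB4 counts within a library, on which scaling has no effect, was 0.848, 0.944 and 0.776 in controls and 0.340, 0.399 and 0.400 in treated cells. The groups did not overlap, and the means differed by -1.17 on the log2 scale. This pair was picked after its values had been seen, so the ratio is a description with no test.

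Both immunoproteasome genes were lower after TMM scaling, and neither was with 12 reference genes. PSMB8 was at 2.50, 2.74 and 2.34 CPM in DMSO controls and at 1.331, 1.116 and 1.474 CPM in HSN748-treated cells (log2 fold change -0.94, SE 0.18, adjusted p = 0.0014, but 0.056 with 12 reference genes). Its exons are listed on chromosome 6 and on 7 alternative contigs of the MHC region, and only 42 to 144 counts per library were assigned to it, against at least 374 for any other of the 44 genes. How reads with several matching places were counted is not given in the sources used here, so its level cannot be set against that of other subunits. PSMB10 was at 60.0, 50.2 and 71.4 CPM in controls and at 45.0, 40.6 and 53.2 CPM in treated cells. HSN748 replicate 9 lay above DMSO replicate 2, and the log2 fold change was -0.39 (SE 0.14, adjusted p = 0.035). PSMB10 did not pass without DMSO replicate 1 (adjusted p = 0.073) or 3 (0.071) or HSN748 replicate 7 (0.12) or 8 (0.15). It also did not pass with upper-quartile factors (0.28), the total count (0.11), either set of reference genes, a filter at a mean of 10 CPM (0.15) or limma on log2(FPKM + 1) (0.052).

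An exchange of constitutive for immunoproteasome subunits was examined with ratios within a library. The ratio of PSMB10 to PSMB7 counts was 0.674, 0.590 and 0.661 in DMSO controls and 0.684, 0.774 and 0.839 in HSN748-treated cells. It was higher in every treated culture by a mean of 0.25 on the log2 scale, with HSN748 replicate 7 close to the controls (exact two-sided permutation test, p = 0.1, the smallest that 3 against 3 cultures can give, and 0.2 when adjusted over the 2 ratios tested). The ratio of PSMB8 to PSMB5 counts was 0.0454, 0.0601 and 0.0350 in controls and 0.0412, 0.0395 and 0.0491 in treated cells, and the groups overlapped (difference -0.09, from -0.28 to 0.11 when each culture was left out, exact permutation p = 0.8). IRF1, a factor that raises immunoproteasome genes in response to interferon, did not pass (-0.07, adjusted p = 0.52).

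All 17 cap subunits with a PSM symbol were lower, 7 of them beyond -1 on the log2 scale, and their median was -0.94. Under 12 reference genes PSMD4 was higher instead, at 0.23, and PSMC6 was at 0.12 without passing. Summed over the 17 genes, DMSO controls had 2657, 2665 and 2857 CPM and HSN748-treated cells 1504, 1438 and 1543 CPM, and the spread within each group was small beside the gap.

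The PSMC genes encode the ATPase ring of the base, which unfolds the substrate. All 6 were lower after TMM scaling, with a median of -0.78. PSMC3 was at 142, 137 and 160 CPM in DMSO controls and at 55.2, 54.3 and 67.6 CPM in HSN748-treated cells (log2 fold change -1.31, SE 0.11, adjusted p = 5.5e-06). The level was 2.48 times as high in controls. PSMC4 (-0.995), PSMC5 (-0.84), PSMC1 (-0.71) and PSMC2 (-0.61) came next, and PSMC6 had the smallest decrease, at -0.39 (SE 0.09, adjusted p = 0.0027). The ring holds each ATPase once, and yet the decreases of its genes spread over 0.91 on the log2 scale. For PSMC1, 80.8% of the exon bases are shared with NRDE2 on the opposite strand, and its counts cannot be told apart from those of NRDE2 unless the strand was used. PSMC4 is also listed on a patch contig.

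The PSMD genes that encode cap subunits had the lowest median of any part, at -1.02 over 11 genes. The lid is the part of the cap that holds the deubiquitinase PSMD14. Its 8 subunits with a PSMD symbol were all lower and ranged from -1.28 to -0.71. SEM1, a lid subunit outside the symbol pattern, overlapped between the groups and did not pass (-0.46, SE 0.21, adjusted p = 0.073). It is counted below among the bound proteins. PSMD12 was at 151, 171 and 140 CPM in DMSO controls and at 61.6, 67.8 and 60.8 CPM in HSN748-treated cells (-1.28, SE 0.09, adjusted p = 2.5e-06). PSMD11, whose increase is known to raise 26S assembly in human embryonic stem cells, was at -1.16, PSMD14 at -1.15, PSMD8 at -1.08, PSMD3 at -1.02, PSMD7 at -0.90, PSMD6 at -0.75 and PSMD13 at -0.71. In the base, the scaffold subunits PSMD1 and PSMD2, to which ubiquitin-binding proteins dock, were at -1.08 and -0.94. PSMD4, a ubiquitin receptor also known as Rpn10, was set apart from them at -0.28 (SE 0.10, adjusted p = 0.03), and it did not pass without DMSO replicate 3 (adjusted p = 0.066) or HSN748 replicate 7 (0.11) or 8 (0.13).

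**Figure D3:**
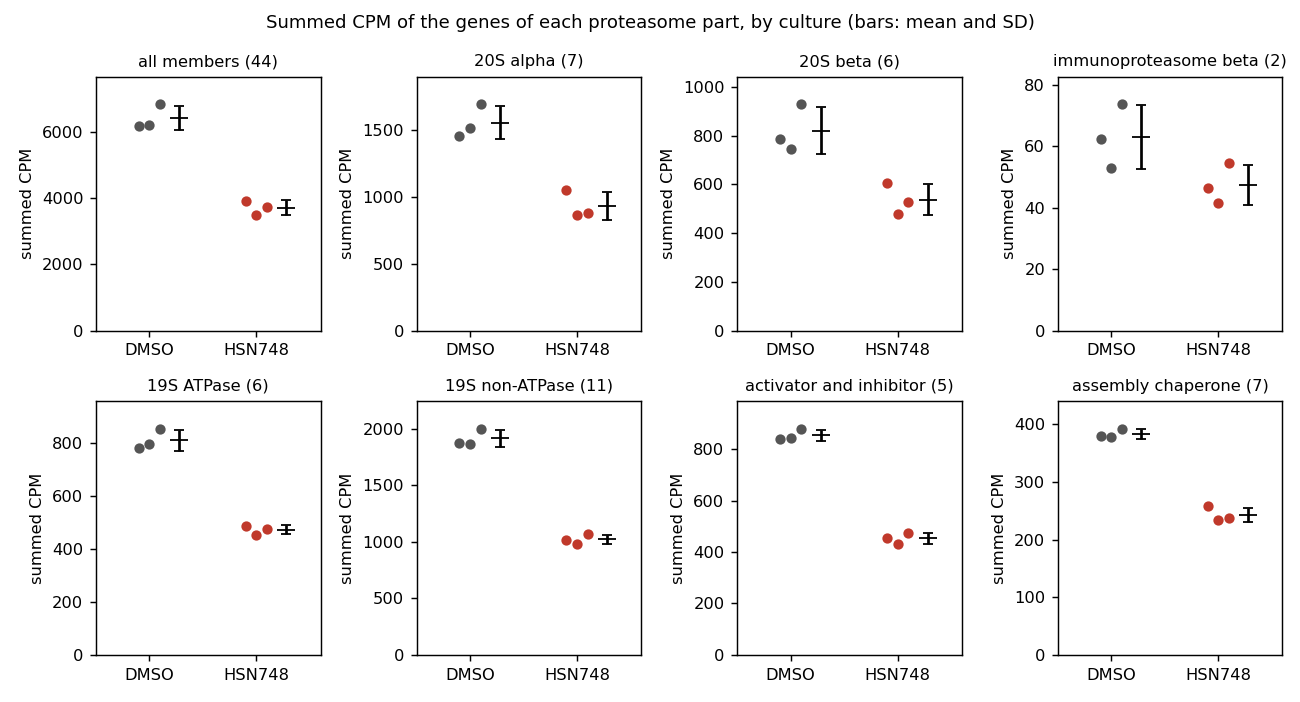
Summed CPM (y axis, from 0) of the genes of each proteasome part in the 3 DMSO and 3 HSN748 cultures (points), with the mean and SD beside them and the number of genes in brackets. Treated cultures lie below all controls in every panel except the immunoproteasome, where HSN748 replicate 9 at 54.65 CPM lies above DMSO replicate 2 at 52.9.

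All 4 activators and the inhibitor were lower, with log2 fold changes from -1.64 to -0.35 (2 of the 5 were lower with 12 reference genes). PSME1 and PSME2 encode the alpha and beta chains of PA28, which share a ring and are both induced by interferon gamma. PSME2 was at 121, 115 and 133 CPM in DMSO controls and at 42.5, 37.1 and 39.3 CPM in HSN748-treated cells (log2 fold change -1.64, SE 0.09, adjusted p = 4.1e-07), or 3.11 times as high in controls. PSME1 was at 93.7, 96.7 and 105 CPM in controls and at 80.9, 71.2 and 79.6 CPM in treated cells (-0.35, SE 0.08, adjusted p = 0.0036), and under upper-quartile factors (adjusted p = 0.14) or either set of reference genes it did not pass. The ratio of PSME2 to PSME1 counts went from 1.29, 1.195 and 1.27 in controls to 0.525, 0.521 and 0.493 in treated cells. The groups were far apart and each was narrow (difference -1.29 on the log2 scale, SD 0.06 in controls and 0.05 in treated cells, n = 3 each), for a pair likewise picked on its values and not tested. Both genes are also listed on a patch contig of chromosome 14, the same for both.

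PSME3 encodes PA28 gamma, a nuclear activator that acts without ubiquitin, and PSME4 encodes PA200, a nuclear activator linked to the degradation of acetylated histones. PSME3 was at 338, 332 and 355 CPM in DMSO controls and at 131, 128 and 145 CPM in HSN748-treated cells (log2 fold change -1.34, SE 0.08, adjusted p = 6.1e-07), the second largest decrease among activators. PSME4 was at 180.7, 193.5 and 176.9 CPM in controls and at 122, 122 and 124 CPM in treated cells (-0.58, SE 0.07, adjusted p = 4.6e-05). The ratio of PSME3 to PSME4 counts was 1.87, 1.715 and 2.01 in controls and 1.075, 1.05 and 1.17 in treated cells, without overlap, in a pair also picked on its values. PSMF1, which encodes the inhibitor PI31, was at -0.42 (SE 0.08, adjusted p = 0.0014).

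Assembly chaperones held the single largest decrease and also some of the smallest. PSMG1 and PSMG2 encode PAC1 and PAC2, partners that place the alpha subunits into a ring. PSMG1 was at 79.7, 81.6 and 83.5 CPM in DMSO controls and at 25.4, 24.7 and 25.1 CPM in HSN748-treated cells (log2 fold change -1.70, SE 0.07, adjusted p = 1.1e-07), or 3.26 times as high in controls. Both groups were tight. PSMG2 was at 76.3, 73.5 and 75.6 CPM in controls and at 71.4, 57.9 and 56.4 CPM in treated cells (-0.28, SE 0.10, adjusted p = 0.028). It did not pass without DMSO replicate 1 (adjusted p = 0.081) or HSN748 replicate 8 (0.12) or 9 (0.12). The ratio of PSMG1 to PSMG2 counts was 1.045, 1.11 and 1.10 in controls and 0.356, 0.428 and 0.444 in treated cells, a difference of -1.42 on the log2 scale, again a description of a pair picked on its values. The second pair of core chaperones, PSMG3 and PSMG4, was at -0.96 and -1.14. Chaperones of the 19S base changed less, with PSMD5 at -0.47, PSMD10 (gankyrin) at -0.44 and PSMD9 at -0.32. PSMD9 did not pass without HSN748 replicate 7 (adjusted p = 0.056) or 8 (0.053). Scaled to 12 reference genes, these base chaperones and PSMG2 were above 0, and only PSMG2 of them passed.

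Levels per kilobase of the deposited gene length differed widely among subunits that the core holds in equal number. In DMSO controls the 20S genes ranged from 38.2 CPM per kilobase in PSMB2 to 263 in PSMB1, leaving out PSMB8 and PSMB10. After HSN748 PSMB2 remained the lowest, at 16.4, while PSMB4 was the highest, at 216. The deposited lengths take in the exons of all transcripts, with each base of a contig counted once. This comes to 4528 bases for PSMB2 and 891 for PSMB1. For genes listed on extra contigs the copies are added, as in PSME1 (2362 bases, of which 1181 are on the chromosome). Over the 40 members listed on a single contig, the log2 fold change had a correlation of -0.12 with log2 length and of -0.06 with the log2 level in controls. These are descriptions across genes that share the same 6 libraries.

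**Figure D4:**
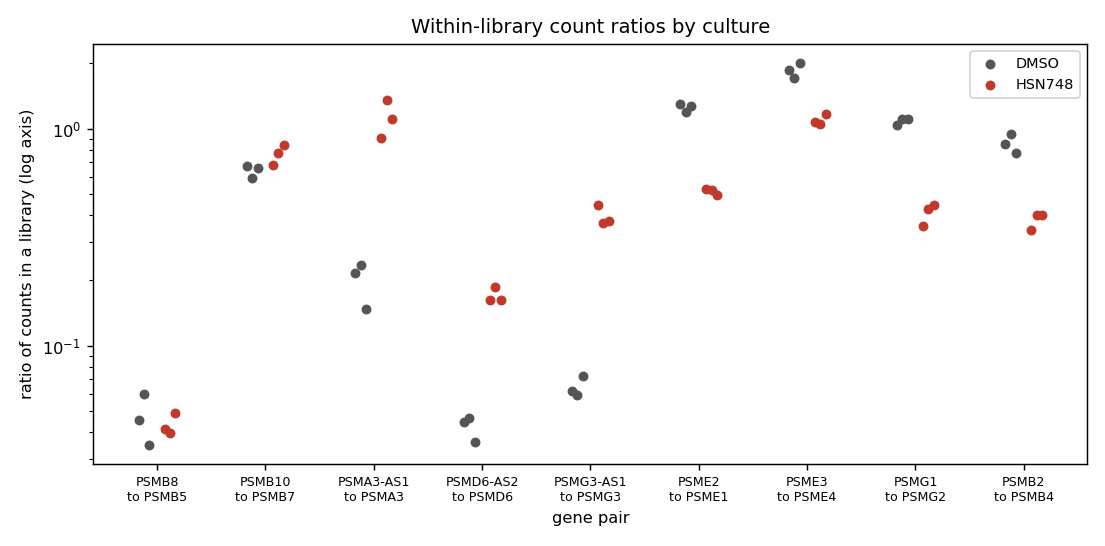
Ratio of counts of paired genes within each library (y axis, log scale), 3 points for DMSO and 3 for HSN748. PSME2 to PSME1, PSME3 to PSME4, PSMG1 to PSMG2 and PSMB2 to PSMB4 are lower in every treated culture, the ratios of antisense gene to subunit gene and PSMB10 to PSMB7 are higher, and PSMB8 to PSMB5 overlaps.

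Of the 5 other genes that share the symbol, 4 were higher in HSN748-treated cells and 1 was lower. Among all genes tested, 36.6% were higher and 36.5% lower. Antisense genes at subunit loci rose where the subunit gene fell. PSMA3-AS1 was at 41.9, 46.9 and 34.98 CPM in DMSO controls and at 110, 130 and 103 CPM in HSN748-treated cells (log2 fold change 1.47, SE 0.13, adjusted p = 8.8e-06), so that its counts were from 0.147 to 0.236 times those of PSMA3 in controls and from 0.907 to 1.36 times in treated cells. PSMD6-AS2 was at 6.00, 6.68 and 5.07 CPM in controls and at 14.2, 14.5 and 13.4 CPM in treated cells (1.24, SE 0.12, adjusted p = 2e-05). PSMG3-AS1, which starts head to head with PSMG3, was at 1.58, 1.32 and 2.12 CPM in controls and at 6.02, 4.78 and 4.88 CPM in treated cells (1.65, SE 0.20, adjusted p = 7.2e-05). In each pair the ratio of antisense to subunit counts did not overlap between the groups (differences of 2.50, 2.01 and 2.62 on the log2 scale). These follow from the opposite calls of the genes divided, which were known when the pairs were picked, and no test was made. The genomic spans of PSMA3-AS1 and PSMD6-AS2 overlap those of PSMA3 and PSMD6. None of the 3 antisense genes shares exon bases with a subunit gene in the table, but whether intronic reads or the strand entered the counts is not given in the sources used here. PSME3IP1, which encodes a partner of PA28 gamma, rose by 0.41 (SE 0.07, adjusted p = 0.00065), opposite to PSME3. PSMC3IP, which encodes a meiotic recombination factor and no proteasome subunit, was at 20.3, 20.2 and 19.02 CPM in controls and at 3.85, 2.37 and 3.13 CPM in treated cells (-2.67, SE 0.16, adjusted p = 1e-06), and 39.1% of its exon bases are shared with MLX on the opposite strand.

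Genes that work with the proteasome but lie outside the symbol were mixed, and their counts stand beside 36.5% lower and 36.6% higher among all genes. Of 14 genes for bound proteins and maturation factors, 9 were lower, 2 were higher and 3 did not pass, with a median of -0.27 (5 lower and 7 higher with 12 reference genes, and 5 lower with upper-quartile factors). UCHL5, a deubiquitinase of the cap, was at -1.78, UBE3C, a proteasome-bound ubiquitin ligase, at -1.02, and USP14, another cap deubiquitinase, at -0.95. AKIRIN2, which helps to import proteasomes into the nucleus, was higher, at 0.61 (SE 0.08, adjusted p = 9e-05). POMP, the maturation factor of the 20S core, was at -0.99 (SE 0.15, adjusted p = 0.00025), and ADRM1, a ubiquitin receptor of the cap, at -1.03 (SE 0.21, adjusted p = 0.002). Both were picked for mention after their values had been seen.

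Ubiquitin genes and shuttle factors were lower in 8 of 11 cases, higher in 0 and did not pass in 3, beside 36.5% lower and 73.1% passing in either direction over all genes, with a median of -0.73 (4 lower and 3 higher with 12 reference genes, and 3 higher without DMSO replicate 3). UBQLN4 (-1.27), RAD23B (-1.02) and UBQLN1 (-0.73), which carry ubiquitinated proteins to the cap, were among those with the smallest adjusted p-values. Of 10 genes on the route of NFE2L1, 4 passed as higher, 3 as lower and 3 in neither direction, close to the 36.6% and 36.5% of all genes (7 higher with 12 reference genes). MAFG, a small partner of the factor, was at 0.75, BACH1, a repressor that binds the same elements, at 1.07, and NGLY1, which removes the glycans of NFE2L1, at 0.61. VCP, the ATPase that extracts NFE2L1 from the ER membrane, was at -0.82. NFE2L1 itself did not pass, with 103.6 ± 1.51 CPM in controls and 110.1 ± 6.35 CPM in treated cells (SD, n = 3 each, log2 fold change 0.09, SE 0.07, adjusted p = 0.27). Of 5 measured genes of the interferon route, 2 were lower and 0 were higher, namely TAP2 at -1.23, which like PSMB8 is listed on 7 additional contigs, and NLRC5 at -0.32, which was above 0 with either set of reference genes, where 3 of the 5 were higher.

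Promoter sequence was searched because many of these genes moved together. RefSeq gave a window of 250 bases before to 50 bases after the start for 38 of the 44 genes, and none for PSMA7, PSMB1, PSMB6, PSMB7, PSMD4 and PSMG3. The antioxidant response element core was present in 13 of the 38 (34.2%), beside 19.5% of the tested genes with a promoter entry. Matches before the RefSeq gene start are shown for PSMA4, PSMC5, PSMD3, PSMD12 and PSMG2. The core is in capitals with 8 bases on either side, read in the direction of the core (GRCh38.p14). The deposited table places the starts of PSMA4 (chr15:78540405) and PSMC5 (chr17:63827431) further upstream, so these 2 matches lie within the deposited gene spans.
PSMA4, chr15:78540652-78540676, plus strand: gggcacgaTGACTCTGCaccgcctc
PSMC5, chr17:63827656-63827680, minus strand: ggcggcgcTGACACAGCagatccgg
PSMD3, chr17:39980762-39980786, plus strand: ccctttgtTGACTCGGCcatcggcc
PSMD12, chr17:67366726-67366750, minus strand: acaaaaccTGACGCTGCaggctgga
PSMG2, chr18:12658691-12658715, plus strand: gtttcccgTGACCCCGCggccgctc
The genes with these sites included both PSMD12, at -1.28, and PSMG2, at -0.28. Members with a core had a median log2 fold change of -0.84 and members without one of -0.89. The ETS site was present in 36.8% of members and 22.9% of tested genes, the CCAAT box in 44.7% and 43.4%, and the GC box in 68.4% and 75.3%. The E-box, bound by MYC, was present in 2 members, PSMD9 and PSME3 (5.26%), and in 12.7% of tested genes. The 17 members with a CCAAT box had a median of -0.98 and the 21 without one of -0.71, a description over members with no test. PSMB4 and PSMB10 were the only members with a promoter entry and none of the 5 motifs, which was so for 8.46% of tested genes.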

How the data were processed

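MOLM14 cultures treated with DMSO or HSN748 (3 each) were profiled by RNA-Seq. Raw counts for 13244 genes were deposited by the authors, whose processing notes name bcl2fastq and STAR. The sources used here do not give versions, counting program, annotation or filter. The contig names in the deposited table are those of GRCh38, and 9003 of 12794 matched symbols had the RefSeq start. Log2 FPKM and log2 CPM values, deposited under each other's heading, accompany them, as do a signed fold change, log2 fold change, p-value and FDR from the authors' own comparison, which were not used.

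Differences between groups were tested in R 4.3.3 by edgeR 4.0.16: filterByExpr (160 genes removed), TMM factors (0.946 to 1.07), and a quasi-likelihood test with treatment as the only term. The biological coefficient of variation was 11.2%. DESeq2 1.42.0, limma-voom (limma 3.58.1), other scalings and filters, limma on log2(FPKM + 1) and log2(FPKM + 0.1), and leaving out each culture were tried. The test was checked on simulated data in which few genes changed, equally often up and down. That check does not cover a change of most genes, so it cannot vouch for calls that depend on the scaling. The sources used here name no molecular identifiers. The 12 reference genes were classical ones, among them ACTB, B2M, PPIA, TBP and TFRC, and the 9 were C1orf43, CHMP2A, EMC7, GPI, RAB7A, REEP5, SNRPD3, VCP and VPS29, each set used by its geometric mean. Some of them, such as VCP, are also members of lists described in the report.

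The proteasome genes and all lists were chosen with earlier results of these data known. Every member was named. Values per culture were given for catalytic subunits and, in each part, for the member with the largest change, and up to 4 genes per related list by adjusted p. The ratios other than PSMB8 to PSMB5 and PSMB10 to PSMB7 were chosen after values were seen. So were the genes PSMB4, PSMG2, PSME1, PSME3 and PSME4 given by culture, and NFE2L1, IRF1 and SEM1. Only PSMB8 to PSMB5 and PSMB10 to PSMB7 were tested, with p adjusted over these 2 ratios. One gene of the symbol pattern and some genes of the other lists are not reported here, and PSMB3 was not analysed here.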

Additional observations from a re-analysis of the deposited data

How the results depend on the processing

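DESeq2, limma-voom, RLE factors and no filter on low counts left 43 proteasome genes lower and 0 higher. A filter at a mean of 10 CPM left 37 lower, removed PSMB8 and moved the median of all proteasome genes to -0.71 (9 beyond -1). TMM factors were recomputed after this filter, and the members shifted by nearly the same amount, as with a change of scaling. PSMB2 went from -1.22 to -1.09 and PSMA1 from -0.25 to -0.13. Members beyond -1 numbered 6 with upper-quartile factors, 9 with the total count, and 2 with either set of reference genes, and their median was -0.66, -0.74, -0.49 (9 genes) and -0.35 (12 genes). With 12 reference genes 28 members were lower and 4 higher, and with 9, 1 was higher. By part, with 12 reference genes, 3 beta, 0 immunoproteasome, 2 activator and inhibitor and 3 chaperone genes were lower, and with 9, 1 immunoproteasome, 3 activator and inhibitor and 3 chaperone genes. The immunoproteasome count was 1 with upper-quartile factors and with the total count and 0 at a mean of 10 CPM.

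Directions turned at 12 reference genes for PSMA1 (0.26), PSMB10 (0.12), PSMB4 (0.47), PSMC6 (0.12), PSMD10 (0.0691), PSMD4 (0.23), PSMD5 (0.0445), PSMD9 (0.19), PSME1 (0.16), PSMF1 (0.0932), PSMG2 (0.23) and NLRC5 (0.19), and for the chaperone median (0.0445). At 9 reference genes they turned for PSMA1 (0.12), PSMB4 (0.33), PSMD4 (0.0922), PSMD9 (0.0483), PSME1 (0.017), PSMG2 (0.086) and NLRC5 (0.05). This follows from the scaling, which shifts all genes alike.

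Over all genes, 7722 were higher and 2471 lower with 12 reference genes, and 2969 lower with 9. Beyond 1 on the log2 scale, 3977 were higher and 995 lower with 12 reference genes, 3370 and 1187 with 9, and 1050 and 1179 at a mean of 10 CPM, where fewer genes were tested.

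Leaving out each culture in turn gave 38 to 43 lower members, 10 to 19 beyond -1 and a median from -0.88 to -0.75. The immunoproteasome count ranged from 1 to 2. PSMA1, PSMB10, PSMD4, PSMD9 and PSMG2 lost their call without at least 1 culture, with the total count and at a mean of 10 CPM, and with upper-quartile factors so did PSMC6 and PSME1. PSMB8 had 42 to 144 counts per library and every other member at least 374, and PSMB8 kept its call without any 1 culture. No paired analysis was possible because the groups share no replicate number.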
